A study of Mus musculus with 16 samples.

Results

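Monocytes and macrophages were found as a small admixture in 5 pools of mouse cells that had been sorted as γδ T cells. They were selected on measured values: a barcode needed at least 1000 RNA UMIs (unique molecular identifiers, which count captured transcripts), at least 500 genes, at most 10% mitochondrial UMIs, and a top hashtag of at least 10 UMIs and at least 3 times the next one. It also needed at least 3 UMIs of Lyz2 (lysozyme of myeloid cells) and at least 1 UMI of Csf1r (the receptor for colony stimulating factor 1), and 0 UMIs of Cd3e, Cd79a and Fscn1, which mark T cells, B cells and mature dendritic cells. The rule chose 121 of 32065 assigned cells (0.377%, exact Clopper-Pearson 95% interval 0.313 to 0.451). The 2 markers and the 3 excluded genes are therefore no finding, and intervals throughout cover counting error only.

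The study fed mice chow with 0.1% DDC, a porphyrinogenic compound that injures the bile ducts, and profiled liver and liver-draining lymph node (LN) cells. Alive CD45+ CD3e+ TCRβ- TCRγδ+ cells had been sorted, marked with antibody hashtags by condition and pooled before droplet sequencing. The arms were D0 (no DDC), D5, D9 (liver only) and D19, named for the day of diet (D19 can stand for day 18 or 19, per the study's text), and STOP, with 18 days of diet and then 7 days of recovery. D5-DT arms came from Mgl2-DTR mice, which carry the human diphtheria toxin receptor with EGFP at the Mgl2 locus, were given diphtheria toxin on days -1 and 2 and were fed DDC for 5 days. The other arms were C57BL/6J mice without toxin, and the arms analysed here held neither Mgl2-DTR mice without toxin nor mice without the receptor that had toxin. Male mice were used, per the study's methods. The number of mice behind an arm is not given in the sources used here, each of the 11 arms was 1 sample, and no difference between arms was tested.

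Classical monocytes are made in bone marrow, circulate with high Ly6c2 and Ccr2, and enter inflamed tissue, where they can become macrophages. Nonclassical monocytes patrol vessels, with low Ly6c2 and high Cx3cr1 and Ace. Resident macrophages differ by tissue: Kupffer cells line liver sinusoids and bear Clec4f, Vsig4 and Timd4, while LN macrophages clear dying lymphocytes and lymph-borne particles. Mgl2 (CD301b) and Clec10a (CD301a) are neighbouring galactose-binding C-type lectins, known from type 2 conventional dendritic cells and from some macrophages.

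Over all arms, members were 30 of 17568 liver cells (0.171%) and 91 of 14497 LN cells (0.628%), but the order of the tissues was the other way round at D5. In liver they were 0 of 697 cells at D0 (which allows a share of up to 0.430% at 3 counts, or 0.528% by the exact interval), 19 of 3928 at D5 (0.484%, interval 0.291 to 0.754), 1 of 2623 at D9, 2 of 6652 at D19 (0.0301%, 0.00364 to 0.109), 0 of 1633 after STOP (up to 0.184% at 3 counts, or 0.226%) and 8 of 2035 in D5-DT (0.393%, 0.170 to 0.773). In LN they were 3 of 1540 cells at D0 (0.195%, 0.0402 to 0.568), 12 of 10314 at D5 (0.116%, 0.0601 to 0.203), 36 of 788 at D19 (4.57%, 3.22 to 6.27), 14 of 780 after STOP (1.79%, 0.985 to 2.99) and 26 of 1075 in D5-DT (2.42%, 1.59 to 3.52). The intervals of LN D19 and LN STOP, which shared a pool, did not overlap. Liver D5-DT and liver D5 differed by -0.0906 percentage points, within their intervals, but by 1.27 points when cells with Cd3e, Cd79a or Fscn1 were kept, whereas LN D5-DT lay above LN D5. D5 and D5-DT cells were in different pools, so treatment and pool cannot be told apart. The share is of cells that passed a sort for γδ T cells, so it does not measure how common these cells were in the tissue. Cells with Cd3e and under 3 Lyz2 UMIs were 358 of 788 in LN D19, 451 of 780 in LN STOP and 765 of 1075 in LN D5-DT. They were 1286 of 1540 in LN D0, 8773 of 10314 in LN D5 and 3598 of 3928 in liver D5. The arms with the highest member shares thus had the lowest shares of such cells, and the link was not tested.

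**Figure D1:**
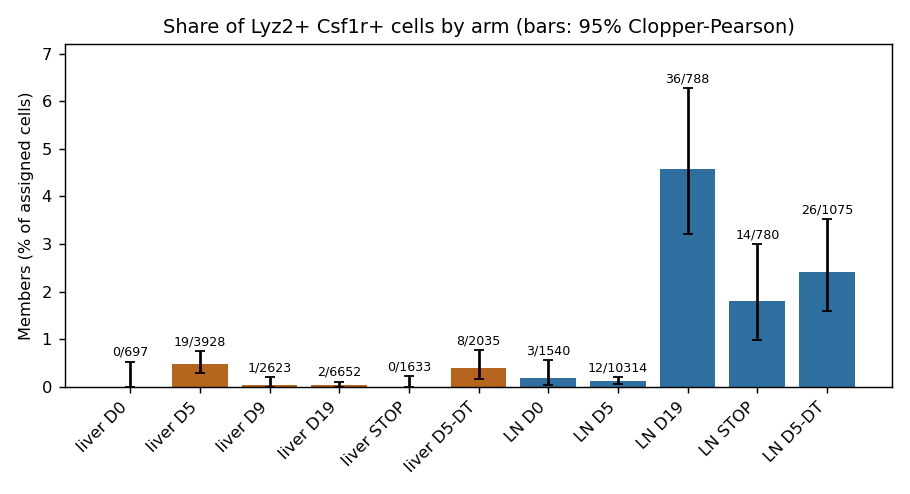
Share of members among assigned cells (y axis, percent) in each of the 11 arms (x axis; brown liver, blue LN), with 95% Clopper-Pearson intervals and members over cells printed above. LN D19, LN STOP and LN D5-DT stand above the other arms, at 4.57%, 1.79% and 2.42%.

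The rule removed many cells that passed the marker gate. Of 350 barcodes with the RNA quality and the Lyz2 and Csf1r counts, 233 also met the hashtag rule (66.6%), against 94.2% of all 34052 barcodes of that quality. In the D5-DT pool these values were 61.7% and 92.8%. Of the 233 cells, 91 had Cd3e, 12 had Cd79a and 25 had Fscn1. In the liver D5-DT arm 36 of 44 gated cells were left out, all with Cd3e, and in liver D5 16 of 35 were left out, again all with Cd3e. Doublet scores were no part of the rule. Taking out the cells with the highest Scrublet scores would have removed 0 members and 9 of the gated cells left out, of which 5 were in the pool that held liver D5, 3 in the D5-DT pool and 1 in the pool that held LN D5. Near the limits of the gate, 6 members had 3 to 5 Lyz2 UMIs and 27 had 1 Csf1r UMI. Just outside it, 52 cells had 3 or more Lyz2 UMIs with no Csf1r, and 13 had Csf1r with 1 to 2 Lyz2 UMIs. Of 32065 cell barcodes, 99 repeated a barcode of another pool, and 3 members had such a barcode.

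The members held from 1093 to 48092 UMIs each, and the median was 8263 in liver D5, 11090 in liver D5-DT, 4436 in LN D5, 9696.5 in LN D19, 8037.5 in LN STOP and 10949 in LN D5-DT. The 3 LN D0 cells had a median of 2863. Counts were summed over the members of an arm or subcluster and are given as CPM, the count for every 1000000 of their RNA UMIs.

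The label was borne out in part by genes that the rule had not used. Cd68, a lysosomal glycoprotein of macrophages, was seen in 104 of 121 members, Cd14, a receptor for bacterial lipopolysaccharide, in 67, and Adgre1, which encodes F4/80, in 49. Ccr2, the chemokine receptor of inflammatory monocytes, was found in 69 and Ly6c2 in 49. Genes listed for dendritic cells were also seen. The cDC2 list had 512 UMIs in 98 members (433 CPM), of which 325 were Sirpa, and the cDC1 list 369 UMIs in 92 members (312 CPM), of which 211 were Irf8; monocytes and macrophages also express both genes. In free RNA these lists stood between 205 and 727 CPM and between 17.2 and 245 CPM. Of the others, Flt3 was seen in 12 members, Zbtb46 in 4 and Cd209a in 2. T cell transcripts were not absent. Cd3d, Cd3g or Trdc were seen in 51 of 121 members, with a median of 1 UMI in those and at most 18. Members with 0 UMIs of all 3 were 2 of 8 in liver D5-DT, 10 of 19 in liver D5, 6 of 26 in LN D5-DT and 3 of 12 in LN D5. Most members of both D5-DT arms and of LN D5 thus held T cell transcripts. The 10 T cell genes listed for this check all had UMIs over the members, and their sum ranged from 32.0 CPM in LN STOP to 865 CPM in LN D5 among arms with at least 8 members. In the free RNA of the pools (barcodes with 10 to 499 UMIs) the same list stood between 2523 and 7584 CPM.

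Mgl2 was scarce among the members of every arm, and its locus carries the toxin receptor in the D5-DT mice. Mgl2 lies at chr11:70130125-70137542 and Clec10a at chr11:70166623-70170836 (mm10). In liver D5, Mgl2 had 3 UMIs, all in 1 of 19 members (16.1 CPM, exact Poisson interval 3.32 to 47.0). That cell had 3 Lyz2 UMIs and 1 Csf1r UMI, the least the rule allows, and also held 3 of the arm's 5 Clec10a UMIs. In liver D5-DT it had 0 UMIs in 8 members, which allows up to 39.4 CPM at 3 counts. No fold is given, since both arms were at or under the floor of 3 counts. In LN D5, Mgl2 again had 3 UMIs in 1 of 12 members (48.1 CPM, 9.91 to 140), and in LN D5-DT 0 UMIs in 26 members, a limit of 8.88 CPM. LN D19 held most of the Mgl2 UMIs, 27 in 3 of 36 members (74.1 CPM, 48.8 to 108), of which 16 came from a single cell. LN STOP, LN D0, liver D9 and liver D19 had none. How the reporter allele changes 3′ counting of Mgl2 was not tested.

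Clec10a was seen in more members than Mgl2. It had 5 UMIs in 2 liver D5 members (26.8 CPM, 8.70 to 62.5) and 0 in liver D5-DT, where the limit of 39.4 CPM lay above the D5 level, so a difference was not detectable at this depth. In LN D5 it had 1 UMI (16.02 CPM, 0.406 to 89.2) and in LN D5-DT 23 UMIs in 6 of 26 members (68.1 CPM, 43.1 to 102). The log2 ratio of LN D5-DT over LN D5 was 2.09 with an exact conditional interval of -0.54 to 7.45, which includes 0. LN D19 had 10 Clec10a UMIs in 4 members and LN STOP 3 in 2. Over all members Clec10a was seen in 15 cells and Mgl2 in 5, and all 5 Mgl2 cells also had Clec10a. These genes are near copies of each other, and how the counting shared reads between them was not tested.

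Most Mgl2 cells had high H2-Ab1, though most cells with high H2-Ab1 had no Mgl2. Of 11 members with at least 50 UMIs of H2-Ab1, the β chain of an MHC class II molecule, 4 had Mgl2, and 1 of the other 110 members had it, with 1 UMI and no H2-Ab1. In the D5-DT arms, 1 liver and 1 LN member reached 50 H2-Ab1 UMIs, and neither had an Mgl2 UMI. The Clec10a cells of LN D5-DT were different cells: none of the 6 had more than 2 H2-Ab1 UMIs, and 17 of the 23 Clec10a UMIs came from the subcluster led by Prg4 and Arg1.

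Mgl2 was present in liver D5-DT cells that the rule had left out. The 36 gated cells with Cd3e in that arm held 25 Mgl2 UMIs in 3 cells (29.1 CPM) and 65 Clec10a UMIs in 13 cells (75.7 CPM). The 16 such cells of liver D5 held 8 Mgl2 UMIs in 2 cells (31.2 CPM) and 16 Clec10a UMIs in 4 cells (62.3 CPM). In both liver arms these left-out cells held more RNA UMIs per cell on average than the members. Whether they were doublets with T cells was not tested. The 30 left-out gated cells of LN D5-DT had 0 Mgl2 UMIs and 16 Clec10a UMIs, and those of LN D5, 7 cells, had 0 and 3. Among other cells of the pools with Cd3e and under 3 Lyz2 UMIs, Mgl2 was at 0.0489 CPM in liver D5 and 0 in liver D5-DT, with 1 of 3598 cells and 0 of 1764 cells showing a UMI at median depths of 4844 and 5595 UMIs.

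**Figure D2:**
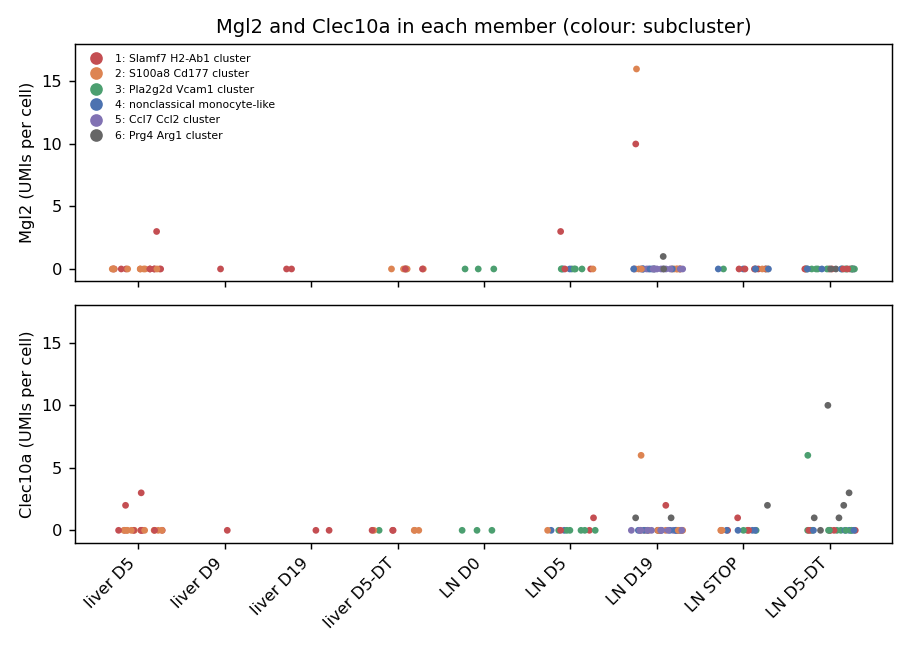
UMIs of Mgl2 (upper panel) and Clec10a (lower panel) in each of the 121 members (points, spread sideways within an arm), by arm and coloured by subcluster. Mgl2 reaches 16 UMIs in 1 LN D19 cell and is 0 in both D5-DT arms, while Clec10a reaches 10 UMIs in LN D5-DT.

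The 121 members fell into 6 subclusters of 31, 27, 22, 18, 13 and 10 cells, found without Mgl2 and Clec10a. Their leading genes are a description, since the same counts formed them. Only the fourth could be named from the markers listed for cell types, and the others are called by leading genes. Liver members were nearly all in the first and second subclusters, with 16 and 13 of 30 cells and 1 in the third, whereas LN members were spread over all 6.

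The first subcluster, 31 cells led by Slamf7 and H2-Ab1, had the highest summed MHC class II level, from some of its cells. H2-Ab1 was seen in 19 of 31 cells, and 10 cells with at least 50 UMIs held 1270 of its 1393 UMIs. It was at 4146 CPM against 416 CPM in the other members, Cd74, the invariant chain, at 10456 against 1100, and Slamf7, a signalling receptor of leukocytes, at 223 against 7.09. Ciita, the master regulator of class II genes, was seen in 11 of 31 cells. Ccr2 was seen in 22 of 31 cells and Ly6c2 in 15. Gpnmb, a lysosomal glycoprotein of lipid-laden macrophages, was at 479 CPM, and Fabp5, a fatty acid binding protein, at 1976 CPM, although 1 cell gave 41.9% of the Fabp5 UMIs. By arm it held 10 of 19 liver D5 members, 3 of 8 in liver D5-DT, 3 of 12 in LN D5, 1 of 36 in LN D19, 5 of 14 in LN STOP and 6 of 26 in LN D5-DT, and the 3 members of liver D9 and D19.

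The second subcluster, 27 cells, had classical monocyte genes in most of its cells. Ccr2 was at 1253 CPM in 22 cells, Ly6c2 at 451 CPM in 17 and Hp (haptoglobin) at 1222 CPM in 24. Cd177, a glycoprotein known from neutrophils, was seen in 16 cells at 208 CPM. S100a8, a calcium-binding alarmin of monocytes and neutrophils, was at 3871 CPM, but 1 cell gave 72.3% of its UMIs. Over all members, 3 cells with at least 20 S100a9 UMIs held 794 of 799 S100a9 UMIs and 792 of 1235 S100a8 UMIs, and Retnlg, a neutrophil gene, was seen in 3 cells of this subcluster and in no other member. It held 9 of 19 liver D5 members, 4 of 8 in liver D5-DT, 11 of 36 in LN D19, 2 in LN STOP, 1 in LN D5 and none in LN D5-DT. Not all of these had classical monocyte genes. The 2 LN STOP cells had 44 and 241 S100a9 UMIs and 0 UMIs of Ccr2 and Ly6c2. A liver D5-DT cell with 10 Clec4f and 16 Vsig4 UMIs also had 0 of both, and gave 89.1% of the subcluster's Kupffer list UMIs. An LN D19 cell with 200 H2-Ab1 and 16 Mgl2 UMIs gave 93.0% of its MHC class II UMIs.

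The third subcluster, 22 cells with a median of 3908.5 UMIs, had genes of resident and phagocytic macrophages. C1qa, a chain of complement C1q, was seen in all 22 cells at 3876 CPM, and Apoe, a lipid carrier, was at 24099 CPM. Pla2g2d, a secreted phospholipase, was at 1624 CPM against 3.76 in the other members, Vcam1, an adhesion molecule, at 762 CPM against 0, and Selenop, a selenium carrier, at 3691 against 199. Timd4, a receptor for dying cells, was seen in 13 cells (695 CPM), Cd209b, a lectin of LN and splenic macrophages, in 5, and Slc40a1, the iron exporter ferroportin, in 12. Clec1b and Timd4 of the Kupffer list were among its leading genes, but Clec4f was seen in only 1 of these cells and 21 of the 22 were from LN. Ccr2 and Ly6c2 were both seen in 0 of 22 cells. It made up all 3 LN D0 members, 6 of 12 in LN D5, 0 of 36 in LN D19, 2 of 14 in LN STOP and 10 of 26 in LN D5-DT.

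The fourth subcluster was nonclassical monocyte-like, with 6 of the 10 nonclassical markers among its 10 leading genes. Its 18 cells were all from LN. Ace, a peptidase, was seen in all 18 at 542 CPM against 13.4 in the other members, Spn (CD43) in 17 at 430 CPM, Adgre4 in 17 at 631 CPM and Treml4 in 15 at 371 CPM. Pou2f2, a transcription factor, was at 734 CPM against 77.3. Ly6c2 was seen in 6 cells. Ccr2, which is low in nonclassical monocytes, was not uniform, with 5 to 21 UMIs in each of the 4 LN STOP cells and 0 or 1 in the other 14. By arm it held 2 LN D5, 8 LN D19, 4 LN STOP and 4 LN D5-DT members.

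The fifth subcluster came from 1 arm. All 13 cells were LN D19 members, so the subcluster and that sample cannot be told apart. Ccl2 and Ccl7, chemokines that attract monocytes through Ccr2, were at 5001 and 1265 CPM against 105 and 0.967 in the other members, and were seen in 13 and 10 cells. The chitinase-like gene Chil3 was at 13496 CPM, the proteoglycan gene Vcan at 3238 CPM, F13a1 (a coagulation factor chain) at 1420 CPM and Ccr2 at 1898 CPM, so that 4 classical monocyte genes were higher here than in any other subcluster. Fcgr1, the high-affinity Fc receptor, was seen in 12 of 13 cells, and Hmox1, which degrades haem, in 13 at 1696 CPM. H2-Ab1 was at 6.73 CPM, the lowest of the 6 subclusters.

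The sixth subcluster, 10 LN cells with a median of 17009.5 UMIs, had an unlisted set of leading genes. Prg4, which encodes the lubricant lubricin, was at 4253 CPM in 9 cells against 1.03 in the other members. Gata6, a transcription factor known from macrophages of the peritoneal cavity, was chosen after its values were seen, and had UMIs in 9 of 10 cells and in 1 of the other 111. Alox15, a lipoxygenase, was at 756 CPM in 6 cells against 0, Icam2, an adhesion molecule, at 643 CPM in all 10, and Ltc4s, an enzyme of leukotriene synthesis, at 878 CPM in all 10. Arg1 (arginase) was at 3492 CPM, but 1 cell gave 61.7% of its UMIs. Adgre1 was seen in 10 of 10 cells at 483 CPM, and Fn1 (fibronectin) was at 12204 CPM. Ccr2 was at 32.9 CPM and H2-Ab1 at 23.5 CPM. Clec10a was seen in 8 of these cells (98.6 CPM) and Mgl2 in 1. The cells came from LN D19 (3), LN STOP (1) and LN D5-DT (6), and none of the 30 liver members had a Prg4 or Gata6 UMI.

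**Figure D3:**
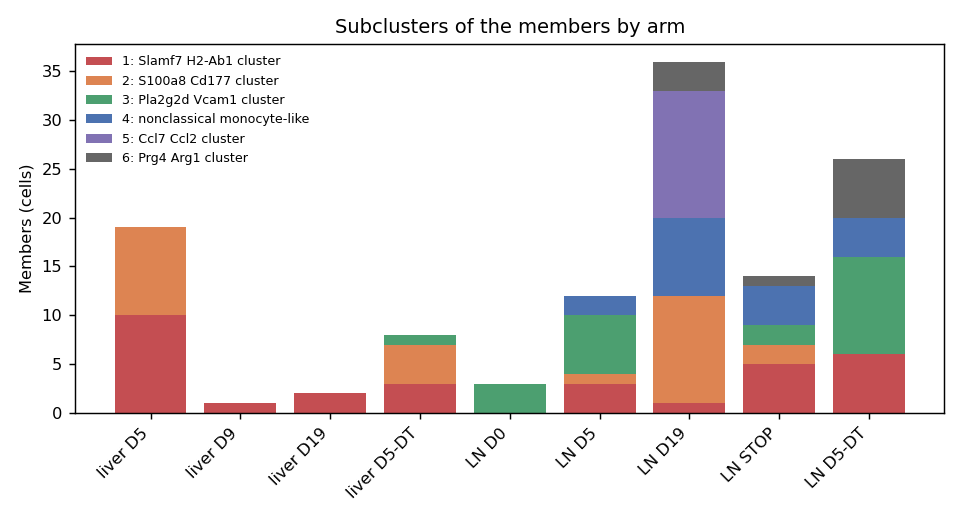
Number of members (y axis, cells) of each subcluster (colours) in each arm with members (x axis). LN D19 holds all 13 cells of the Ccl7 and Ccl2 subcluster and none of the 22 Pla2g2d and Vcam1 cells, while liver D5 holds the first 2 subclusters only.

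**Figure D4:**
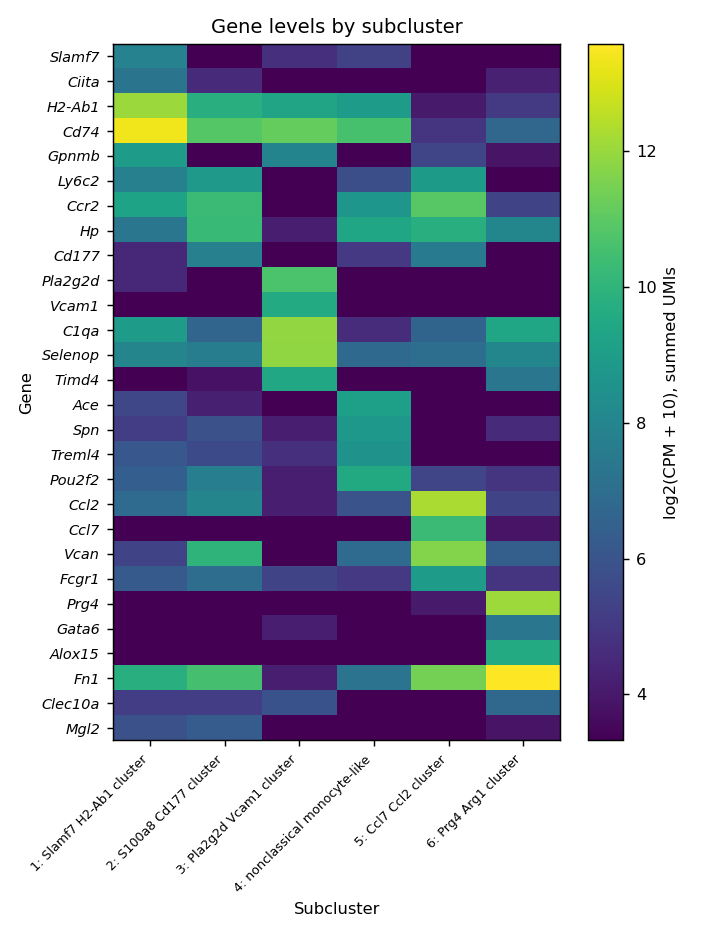
Level of genes named in the text (rows) in the 6 subclusters (columns) as log2(CPM + 10) of UMIs summed over the cells of a subcluster (colour scale). Blocks of high values show Pla2g2d and C1qa in the third, Ace and Spn in the fourth, Ccl2 and Ccl7 in the fifth and Prg4 and Gata6 in the sixth subcluster.

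LN STOP against LN D19 was the comparison within 1 pool with the most members, 14 against 36, and it asks how these cells differed after 7 days of recovery. On log2(CPM + 10), 702 of 3657 genes with at least 20 UMIs over both arms differed at least 2-fold (19.2%), with 290 higher (7.93%) and 412 lower (11.3%) after STOP. The classical monocyte list was lower, at 6041 CPM after STOP against 19978 CPM at D19 (log2 ratio of the sums -1.73, exact conditional interval -1.84 to -1.62). Of its 10 genes, 8 were at least 2-fold lower, 1 was higher and 1 lay between, with a median log2 difference of -1.54. Chil3 was at 87.9 against 9168 CPM, Vcan at 32.0 against 1718, F13a1 at 128 against 813 and Ly6c2 at 32.0 against 239. Plac8, a small cysteine-rich protein gene, was the one that was higher, at 2805 against 906 CPM.

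Of the cytokine and chemokine genes, 4 chemokines and Il1a were at least 2-fold lower after STOP and the chemokine Ccl3 was higher. Ccl2 was at 120 CPM in 3 of 14 members against 2207 CPM in 23 of 36, and Ccl7 had 0 UMIs against 188, at least 21.5-fold lower with 3 counts in STOP as the floor. Ccl9 was at 184 against 867 CPM and Ccl6 at 1007 against 3028. Ccl3 was at 216 against 71.4 CPM. Within 2-fold were Cxcl2, at 1350.5 against 1405 CPM, Ccl4, at 144 against 203 CPM, and Il1b, which encodes interleukin-1β, at 1271 against 821 CPM. The list of 17 cytokine and chemokine genes had a log2 ratio of -1.09 (-1.23 to -0.96), and 5 of its 11 genes with enough UMIs were lower and 1 higher by 2-fold. The 13 cells of the Ccl7 and Ccl2 subcluster gave 92.4% of the Ccl2 UMIs, 60.0% of the Chil3 UMIs and 56.9% of the classical monocyte list in LN D19. The Fc receptor gene Fcgr1 was at 40.0 against 247 CPM and the complement receptor gene C5ar1 at 79.9 against 371.

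MHC class II genes, the C1q chains and 3 interferon response genes were higher after STOP, whereas complement and scavenging genes were split. All 7 MHC class II genes had enough UMIs and 5 were at least 2-fold higher, with a log2 ratio of the sums of 1.73 (1.65 to 1.81). H2-Ab1 was at 3596 CPM in 8 of 14 members against 1071 CPM in 5 of 36, and Ciita at 136 against 10.98. The first subcluster gave 84.7% of the MHC class II UMIs of LN STOP, and the highest single cell gave 37.4% in LN STOP and 47.7% in LN D19. The LN STOP member with the most H2-Ab1 UMIs, 190, had 5 Lyz2 UMIs and 1 Csf1r UMI, the least Csf1r that the rule allows. The stricter rule of at least 5 Lyz2 and 2 Csf1r UMIs, used below for the cDC1 list, leaves this cell out. In LN D19, 2 cells with 200 and 181 UMIs held nearly all of the 390 H2-Ab1 UMIs. The C1q chains were higher together, with C1qa at 823 against 137 CPM, C1qb at 1223 against 280 and C1qc at 743 against 198, in 5 of 14 members after STOP. The highest single cell gave 51.5%, 47.7% and 39.8% of their UMIs there. Of the 10 complement and scavenging genes with enough UMIs, 5 were at least 2-fold higher and 3 lower. The lower ones were C5ar1, the complement receptor gene C3ar1, at 2 against 63 UMIs, and the scavenger receptor gene Msr1, at 128 against 598 CPM. Of the 11 interferon response genes in the files, 3 had enough UMIs and all were at least 2-fold higher, among them Ifi27l2a at 783 against 107 CPM and Rsad2 at 184 against 2.74. Rsad2 was seen in 2 STOP members and 1 D19 member. The nonclassical monocyte list was at 2182 against 1260 CPM (log2 ratio 0.79, 0.57 to 1.01), with Adgre4 at 320 against 85.1 and Cx3cr1 at 280 against 104. Fabp5 was at 1398 against 76.9 CPM.

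The 5 genes with the largest positive differences under the naming rule given in the methods were Bst2 (an interferon-inducible membrane protein) at 256 against 35.7 CPM, and Nod1, Hspe1, Hltf and Gfpt1, with log2 differences of 2.40, 2.07, 1.96 and 1.88. Fabp5, Ciita and Ifi27l2a, given above, had larger differences than Bst2 but did not meet all conditions of that rule. The 5 with the largest negative differences were Chil3, Wfdc21, Vcan, Lcn2 and Ccl2. Lcn2 (lipocalin 2, which binds iron carriers of bacteria) was at 15.98 against 815 CPM, and Wfdc21 had 0 UMIs against 172, at least 19.7-fold lower. Markers of other cells differed as well. The cDC1 list had a log2 ratio of 2.70 (2.22 to 3.20), in which 24 Xcr1 UMIs came from 1 STOP member, and of 0.83 with at least 5 Lyz2 and 2 Csf1r UMIs required. The plasmacytoid DC list had 1.78 (1.21 to 2.34). Bst2, which is on that list, gave 32 of its 60 UMIs in STOP and 13 of 51 at D19. The mature DC list had 2.37 (1.11 to 3.73), with 81.2% of its 16 UMIs in STOP from 1 cell. Of the cDC1 UMIs there, 74.1% were also from 1 cell. The neutrophil list had -0.38 (-0.53 to -0.24), with 3 of 5 genes at least 2-fold lower and 1 higher, but 0.60 with each cell's CPM averaged. Of its UMIs, 1 cell gave 74.3% in LN STOP and 1 cell 69.5% in LN D19. The B cell list stood at 104 against 5.49 CPM. Their part in these differences was not tested.

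**Figure D5:**
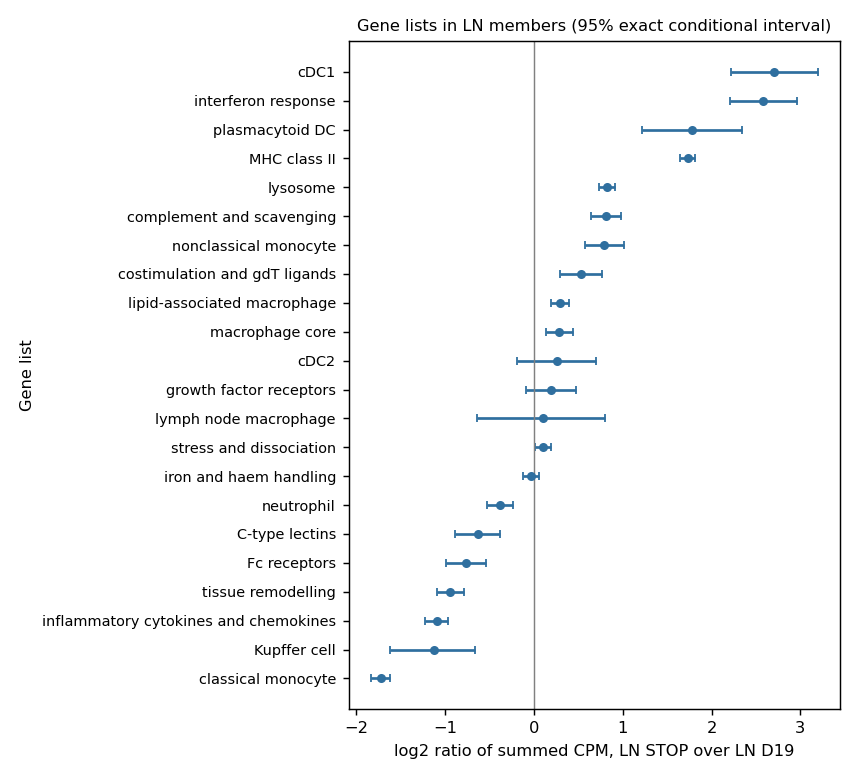
Log2 ratio of the summed CPM of each gene list with at least 50 UMIs, LN STOP over LN D19 (x axis), with the exact conditional 95% interval (bars). The classical monocyte list lies lowest at -1.73. The cDC1 list lies highest at 2.70, and the interferon response, plasmacytoid DC and MHC class II lists lie at 2.58, 1.78 and 1.73.

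LN D5-DT was compared with LN D5, 26 members against 12, across pools. Of 3021 genes, 445 were at least 2-fold higher (14.7%) and 179 lower (5.93%) in D5-DT. Of the 7 tissue remodelling genes with enough UMIs, 3 were at least 2-fold higher (Fn1, Thbs1 and Spp1) and 1 lower (Igf1), and of the 5 cytokine and chemokine genes, 3 were higher (Cxcl2, Ccl9 and Ccl6) and 1 lower (Cxcl9). Fn1 was at 6167 CPM in 13 members against 1362 CPM in 3, and Ccl6 at 6232 against 1762. Thbs1 (thrombospondin 1) had 600 UMIs in 8 members against 0, at least 36.9-fold higher. The tissue remodelling list had a log2 ratio of 1.85 (1.61 to 2.09), although the median of its 7 genes was -0.05, and the cytokine and chemokine list 1.58 (1.35 to 1.81). In LN D5 the highest single cell gave 57.7% of the remodelling UMIs and 64.9% of the cytokine and chemokine UMIs. In LN D5-DT these values were 29.1% and 35.1%. In LN D5-DT the 6 Prg4 subcluster cells gave 98.7% of the Fn1 UMIs, 98.1% of the Ccl6 UMIs and 94.2% of the remodelling list, and no LN D5 member was in that subcluster. By the naming rule, Cgnl1, Gnl3, Fbxl5, Ppfia1 and Ltc4s were highest over LN D5. Ltc4s was at 444 against 32.0 CPM, and the others had 0 UMIs in LN D5, with lower bounds of the fold from 2.09 for Ppfia1 to 2.71 for Cgnl1. The 5 genes lowest against LN D5 were Cdkn1b, Kmt2a, Cd47, Rnf130 and Myl12b, with log2 differences from -2.09 to -1.10. The nonclassical monocyte list was at 1053 against 2114 CPM, and 6 of its 9 genes with enough UMIs were at least 2-fold lower, but 1 cell gave 50.8% of the list's UMIs in LN D5. The T cell list stood at 163 against 865 CPM, with 8 and 7 of its 10 genes seen, and the mature DC list at 68.1 against 256 CPM (log2 ratio -1.91, -2.90 to -0.89), where 1 cell gave 62.5% of its 16 UMIs in D5. Their part in the result was not tested. Free RNA was estimated at 2.82% of the members' UMIs in D5-DT and 14.9% in D5. This share is the members' T cell list level over that list's level in the free RNA of the pool. It takes every T cell UMI of the members to be free RNA, so it is no separate measure. In LN D5, 1 cell gave 42.6% of the T cell list UMIs, and whether these were free RNA was not tested. With it subtracted, the log2 ratios were 1.66 for tissue remodelling, 1.39 for cytokines and chemokines and -1.18 for nonclassical monocyte genes.

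Liver D5-DT was compared with liver D5, 8 members against 19, across pools. Of 1956 genes, 93 were higher (4.75%) and 160 lower (8.18%) by 2-fold in D5-DT. Both arms held classical monocyte genes: Ly6c2 was at 840 CPM in 6 of 8 members and 450 CPM in 15 of 19, Ccr2 at 1011 and 643 CPM, and Chil3 at 2796 and 2841 CPM. Of the 6 iron and haem genes with enough UMIs, 2 were at least 2-fold lower in D5-DT and none higher, namely Slc11a1 and Spic. Ftl1 and Fth1, the ferritin chains, were at 7127 against 13191 CPM and 10356 against 19355 CPM, which is within 2-fold, as were Blvrb and Hmox1. Slc11a1, a metal transporter of phagosomes, was at 52.5 against 257 CPM. The log2 ratio of the iron and haem list was -0.87 (-0.95 to -0.79), and 1 of the 8 D5-DT members gave 43.8% of its UMIs there. Of the 7 cytokine and chemokine genes with enough UMIs, 3 were at least 2-fold lower in D5-DT and 0 higher. Il1b was at 433 CPM in 1 of 8 members against 1849 CPM in 10 of 19, Ccl4 at 131 against 718 CPM and Ccl2 at 13.1 against 155 CPM. Within 2-fold, Cxcl2 and Ccl3 were lower (log2 differences -0.92 and -0.28), and Ccl6 and Ccl9 were higher (0.59 and 0.10).

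Clec4f, Vsig4 and Cd5l of the Kupffer list were seen together in 2 liver D5-DT members. Clec4f had 5 and 10 UMIs in these cells, which had 4378 and 3150 UMIs in all, and 0 UMIs in the other 119 members. Vsig4 had 6 and 16 UMIs in the same cells and 1 UMI over 19 liver D5 members. The arm-level Clec4f value of 197 CPM was at least 12.2-fold above the floor in liver D5, and Cd5l was at least 28.6-fold higher. Clec4f was at 4.58 CPM in the free RNA of the D5-DT pool. The cell with 10 Clec4f UMIs also had 2 Cd3g and 3 Trdc UMIs. By the naming rule, Klf13, Eef2, Malat1, Rpl28 and Rps9 were highest over liver D5, with log2 differences from 0.39 to 0.89. Those lowest against it were Psmc5, Ewsr1 and Cd93, each with 1 UMI against 35, 27 and 24, and Ccl4 and Slc11a1, with log2 differences of -2.37 and -2.10. The T cell list was at 433 CPM in D5-DT against 150 CPM in D5 and the B cell list at 210 against 16.1 CPM. The neutrophil list was at 538 against 204 CPM (log2 ratio 1.40, 0.73 to 2.08), and 1 cell gave 51.2% of its 41 UMIs in D5-DT. Their part in the result was not tested. Free RNA, again with every T cell UMI of the members taken to be free RNA, was estimated at 7.50% of the members' UMIs in D5-DT and 1.98% in D5. With it subtracted, the log2 ratios were -0.80 for iron and haem genes and 2.97 for the Kupffer list, which was 2.89 without subtraction.

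Within the D5-DT pool, the 26 LN members and the 8 liver members could be compared without a change of pool. Of 3104 genes, 487 were at least 2-fold higher (15.7%) and 222 lower (7.15%) in LN. Complement and scavenging genes were higher in LN, 9 of the 10 with enough UMIs by 2-fold. C1qa was at 968 CPM in 17 of 26 members against 473 CPM in 2 of 8, C1qb at 1355 against 354 CPM, and Mertk, a receptor for dying cells, had 33 UMIs against 0, at least 2.48-fold higher. Pla2g2d was at least 8.49-fold higher. Of the 10 classical monocyte genes, 8 were at least 2-fold lower in LN and 1 higher, with a median log2 difference of -1.96 and a log2 ratio of the sums of -0.50 (-0.60 to -0.40). Of the 7 MHC class II genes, 4 were at least 2-fold lower in LN and 0 higher (log2 ratio -1.19, -1.31 to -1.08), but 1 cell gave 93.9% of that list's UMIs in liver. By the naming rule, Ltc4s, Il18, Cgnl1, Chmp1a and Atp2a2 were highest over liver and the lowest were Map4k4, Slc3a2, Ifitm3, Jun and Malt1. Ifitm3, an interferon-inducible gene, was at 1042 CPM in LN against 2743 CPM in liver, and Ifi27l2a at 254 against 1496. The interferon response list, of which 2 genes had enough UMIs, had a log2 ratio of -2.18 (-2.53 to -1.83). The T cell list was at 163 CPM in LN against 433 CPM in liver (log2 ratio -1.41, -2.06 to -0.74) and the neutrophil list at 50.3 against 538 CPM (-3.42, -4.33 to -2.57), and their part in these differences was not tested. In liver, 1 cell gave 51.2% of the 41 neutrophil list UMIs.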

How the data were processed

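Per the file headers and values, the deposited files gave unnormalized UMI counts of genes and hashtags for the barcodes of 5 pools. The authors made them with Cell Ranger, and mm10 is named in the submitters' processing notes. No cell filter had been applied. Hashtags were assigned to arms by their names in the deposited feature tables. Members and gene lists were chosen with earlier results of these data known. Counts were summed over members as CPM. Genes were counted by size on log2(CPM + 10) with no test, and p-values were not computed. A minimum of 20 members in both arms had been planned, but 0 of 8 contrasts met it, so 8 members were used, a choice made after the members were counted. Named genes were list genes, leading genes of subclusters (a UMI in at least 50% of its cells) and the 5 largest differences in each direction with non-overlapping Poisson intervals, at least 5 cells in the higher arm, no cell above 25% of its UMIs and a level above free RNA. Subclusters, found without Mgl2 and Clec10a, came from Leiden clustering in scanpy 1.11.5 (leidenalg 0.10.2; 2000 variable genes, 20 principal components, 15 neighbours, resolution 1.0). Scrublet scores were used only in an alternative that left out the highest-scoring cells of each pool (0.8% for every 1000 cells). The contrast code was tested on simulated data. Pools held 13074668 to 71447265 RNA UMIs. The CITE-seq libraries were not used.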

Additional observations from a re-analysis of the deposited data

Results flagged for a closer look

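In 4 gene lists the interval of the D5-DT over D5 log2 ratio lay on one side of 0 in liver members and on the other side in LN members. The difference between the tissues was not tested, each arm was 1 sample and D5-DT lay in another pool than D5. The directions did not hold throughout: a hashtag ratio of 2 turned the liver value of the cytokine and chemokine list to 0.55 and that of MHC class II to -0.69, keeping cells with an excluded gene turned MHC class II to -0.81 in liver and 0.64 in LN, and averaging each cell's CPM turned MHC class II in LN to 0.37 and the lymph node macrophage list in liver to 0.0166. The cytokine and chemokine list had -0.82 in liver and 1.58 in LN, the MHC class II list 0.22 and -0.89 (1 cell gave 93.9% of that list's UMIs in liver D5-DT, 1 cell 93.1% in LN D5 and 1 cell 48.6% in liver D5), the lymph node macrophage list -1.03 and 0.997, and the T cell list 1.53 and -2.41. For the cytokine and chemokine list, 1 cell gave 64.9% of the UMIs in LN D5 and 1 cell 43.7% in liver D5-DT. Of the 3 chemokines at least 2-fold higher in LN, Ccl6 and Ccl9 were also higher in liver (log2 differences 0.59 and 0.10), while Cxcl2 was lower there (-0.92). Only 1 lymph node macrophage gene had enough UMIs in liver, Clec4n at -1.35. In LN 3 had, of which 1 was at least 2-fold higher and 0 lower.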

How the results depend on the processing

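No paired analysis was possible because each arm was 1 sample and the results come from no test; for the same reason no replicate could be left out. The number of members was 121, against 233 when cells with Cd3e, Cd79a or Fscn1 were kept and 70 when Cd3d, Cd3g and Trdc also had to be 0. Keeping cells with an excluded gene turned the share difference of liver D5-DT over liver D5 to 1.27 percentage points, the MHC class II ratio to -0.81 in liver and 0.64 in LN (D5-DT over D5), and gave 479 genes past 2-fold in liver. Genes past 2-fold for liver D5-DT over D5, LN STOP over D19, LN D5-DT over D5 and LN over liver D5-DT were 107, 298, 286 and 330 with a pseudocount of 50 CPM, 51, 258, 192 and 222 with at least 50 UMIs, and 3301, 2355, 3284 and 3061 with no minimum. A hashtag ratio of 2 gave 447 genes for LN over liver D5-DT and turned 2 liver D5-DT over D5 ratios, to 0.55 for cytokines and chemokines and -0.69 for MHC class II. With each cell's CPM averaged, 4 ratios turned: lymph node macrophage in liver (0.0166), MHC class II in LN D5-DT over D5 (0.37), and Kupffer cell (0.52) and neutrophil (0.60) in LN STOP over D19. With Cd3d, Cd3g and Trdc at 0 the neutrophil ratio was 1.27. Of 278 list values 269 kept their direction, but 58 of these lay outside the interval of the main setting. The other 9 were reversed. These values covered lists chosen for each contrast, not all lists. The cause of the changes was not tested. Contrasts left with under 8 members in an arm were not run, nor were the D5-DT over D5 T cell ratios after subtracting free RNA. With Cd3d, Cd3g and Trdc at 0, no contrast with a D5-DT arm could be run. Depth limits Mgl2 in liver D5-DT to 39.4 CPM.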
